A study of Mus musculus with 6 samples.

Results

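The genes described here are 9 that mark dendritic cells, the antigen-presenting cells that prime T cells, read in RNA from sorted CD8+ T cells. They are Itgax, Batf3, Zbtb46, Clec12a, Clec9a, Xcr1, Flt3, Siglech and Cd209a, and all were taken by symbol. Of the 9, 8 are among the 16749 genes listed in at least 1 library. They were chosen by their role in dendritic cells with their FPKM and expected counts in this same genotype contrast already in view, so their differences between genotypes are given as a description, with no test. The question was whether their levels move together, as RNA from dendritic cells in the sort would, or singly.

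The knockout group is 3 libraries from Cd4creId2f/f mice and the WT group 3 libraries from Id2f/f mice, both on the C57BL/6 background. Every library came from CD8+ T cells that had been isolated by FACS from the iLN, a tissue abbreviation that the labels do not spell out. The series title states that the animals carried tumors and were given oxaliplatin, a platinum drug that damages DNA, in both groups. Cd4-Cre deletes floxed genes in the T cell lineage, in CD4 as well as CD8 cells, and WT mice here had the floxed alleles without Cre, so Cre and loss of Id2 cannot be told apart. No source used here says whether the libraries of a group came from separate animals, so the spread between them may be technical.

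Conventional dendritic cells come in a cross-presenting subset that depends on the transcription factors BATF3, IRF8 and ID2, and a second subset that mainly primes CD4 T cells. Plasmacytoid dendritic cells are the interferon-producing relatives, and they depend on the E protein TCF4. ID2 binds E proteins and keeps them off DNA. Several of the 9 genes are not exclusive to dendritic cells: CD11c, the product of Itgax, is also found on activated CD8+ T cells and NK cells, and BATF3 is also made by activated T cells.

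Expected counts summed to between 7699181 and 7990095 in knockout libraries and between 8307284 and 8495123 in WT libraries. Id2 itself had 1.67, 2.64 and 2.12 FPKM in the knockout libraries, against 370.98, 146.76 and 149.01 FPKM in the WT libraries, so each library fits its genotype label. FPKM, fragments scaled by transcript length and library size, is a level that can be compared between genes. T cell identity was clear in all 6 libraries: the 9 genes checked summed to 4024, 3012 and 3816 FPKM in knockout and 3625, 3186 and 3135 FPKM in WT, led by Lck, Cd3g and Cd8b1, and 0 of 9 passed the threshold between genotypes by edgeR, with 0 at an unadjusted p under 0.05. Cd4 stood between 1.08 and 2.12 FPKM in knockout and between 1.22 and 2.97 FPKM in WT.

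The 9 genes divided by level into a group of 5 that passed the filter on low values, 3 or more libraries at 1 FPKM or above, and a group of 4 that did not. Itgax, Batf3, Zbtb46 and Clec12a were lower in every knockout library than in any WT library. Xcr1 was at the same few FPKM in both genotypes, and Flt3, Siglech and Cd209a lay below 1 FPKM throughout. Clec9a was not listed in any of the 6 libraries.

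**Figure D1:**
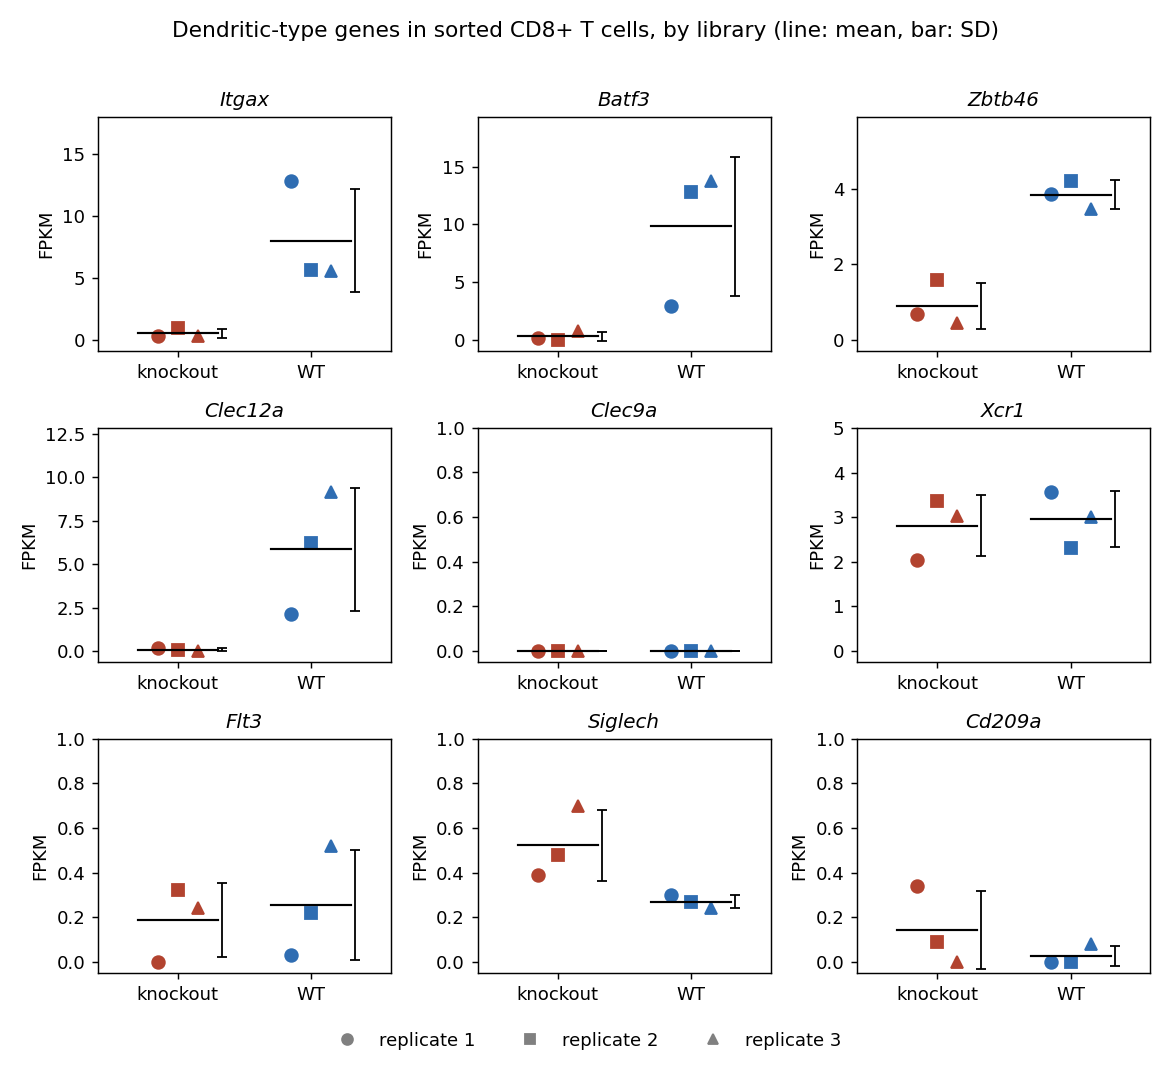
FPKM of each of the 9 genes in the 3 knockout libraries (left, red) and the 3 WT libraries (right, blue); each panel has its own axis, symbols mark the replicate, the line is the mean and the bar the SD. Itgax, Batf3, Zbtb46 and Clec12a have no overlap between genotypes, Xcr1 overlaps, and the remaining genes stay below 1 FPKM.

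Itgax encodes CD11c, the alpha chain of an integrin that pairs with the beta2 chain to bind complement fragments and adhesion ligands. It had 0.34, 0.96 and 0.35 FPKM in knockout replicates 1 to 3, against 12.85, 5.66 and 5.54 FPKM in WT replicates 1 to 3. The highest knockout library was replicate 2 and the highest WT library replicate 1, and the groups were far apart. The mean was 0.55 ± 0.355 FPKM in knockout and 8.02 ± 4.19 FPKM in WT (SD, n = 3 each). The fitted log2 fold change, knockout over WT, was -3.9 (SE 0.473), a level 14.9-fold lower in knockout. Leaving out 1 library moved it between -4.53 (without knockout replicate 2) and -3.33 (without WT replicate 1). The difference rested on 52.2 expected counts in knockout and 821.4 in WT, of which those of 4 libraries were not whole to within 0.01, so a part of the reads was shared with another gene. Itgax spans bases 128129526 to 128150657 of mm10 chromosome 7.

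The stretch just before the Itgax start is shown beside that before the Xcr1 start, since the first gene differed between genotypes and the second did not. Both are from RefSeq, build GRCm38.p6, read 5′ to 3′ on the strand of the gene and ending before the RefSeq gene and any GENCODE exon. Capitals mark every CANNTG, the E-box that E proteins bind, and every TGANTCA, the site of AP-1 and BATF dimers. They lie at chr7:128129300-128129525 on the plus strand (Itgax) and chr9:123862030-123862279 on the minus strand (Xcr1).
Itgax: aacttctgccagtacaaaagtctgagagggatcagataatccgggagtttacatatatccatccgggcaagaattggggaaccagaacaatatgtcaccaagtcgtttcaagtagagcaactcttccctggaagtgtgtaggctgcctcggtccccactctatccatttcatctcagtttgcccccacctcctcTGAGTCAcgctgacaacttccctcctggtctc
Xcr1: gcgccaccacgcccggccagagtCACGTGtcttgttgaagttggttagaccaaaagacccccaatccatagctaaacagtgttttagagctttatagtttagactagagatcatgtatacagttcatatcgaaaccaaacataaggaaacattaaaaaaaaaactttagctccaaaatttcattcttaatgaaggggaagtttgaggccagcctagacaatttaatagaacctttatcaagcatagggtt

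The Itgax stretch held 1 TGANTCA and 0 CANNTG, and the Xcr1 stretch 1 CANNTG and 0 TGANTCA. Of 32851 RefSeq windows of the 250 bases before a start, 66.2% held a CANNTG and 6.75% a TGANTCA, both strands searched, since each motif reads alike on both. In windows of that length, Batf3 had 2 CANNTG, Clec12a 2 and 1 TGANTCA, and Zbtb46 5 and 1 TGANTCA. These counts are matches of letters and not binding sites. The windows of Batf3 and Clec12a overlap annotated exons, and that of Zbtb46 lies inside the gene.

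The beta2 partner chain and the other alpha chains of the family were read in the same libraries. Itgb2 was at 233.99, 175.99 and 206.62 FPKM in knockout and 227.12, 195.55 and 206.52 FPKM in WT (log2 fold change -0.04, adjusted p = 0.875, edgeR), and Itgal, the alpha chain of LFA-1, lay between 98.8 and 109.11 FPKM in knockout and between 90.35 and 102.91 FPKM in WT. Itgam, which encodes CD11b and is the nearest protein-coding gene to Itgax, 11035 bases away, had 0.37, 0.72 and 0.62 FPKM in knockout, against 7.91, 1.18 and 1.09 FPKM in WT. Like Itgax it was highest in WT replicate 1, and its groups did not overlap, but its log2 fold change of -2.62 (SE 0.761) did not pass (adjusted p = 0.0521, edgeR). Without WT replicate 1 it was -0.98 (adjusted p = 0.109), and it did pass without WT replicate 2 (-3.04, adjusted p = 0.0297) or 3 (-3.05, adjusted p = 0.0391). With every knockout library below 1 FPKM, Itgam passed the filter on low values through WT libraries alone. Its values are therefore a description. Itgad, the neighbour on the far side, stayed at or below 0.35 FPKM in all 6 libraries.

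Batf3 encodes a bZIP transcription factor that pairs with JUN proteins and, with IRF4 or IRF8, binds composite sites. It had 0.18, 0 and 0.75 FPKM in knockout replicates 1 to 3, against 2.94, 12.8 and 13.79 FPKM in WT replicates 1 to 3. Here WT replicate 1 was the lowest WT library, the reverse of its place for Itgax, and still above every knockout library. The mean was 0.31 ± 0.392 FPKM in knockout and 9.84 ± 6 FPKM in WT (SD, n = 3 each). The fitted log2 fold change was -4.89 (SE 0.814), 29.7-fold lower in knockout. It was -6.42 without knockout replicate 3, which held 4 of the 5 knockout counts, and -4.33 without knockout replicate 2. Leaving out other single libraries gave values between these. WT libraries together had 171 counts, and the WT over knockout ratio was 31.8 (95% counting interval 13.4 to 99.3, exact Clopper-Pearson). Such intervals cover counting error only. Batf3 spans bases 191098414 to 191108943 of mm10 chromosome 1, and its neighbour Nsl1, which encodes a kinetochore protein, was also lower in knockout (log2 fold change -1.08, adjusted p = 0.0198, edgeR).

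The partners of BATF3 were abundant in both genotypes. Junb and Jun, both AP-1 subunits, lay between 617.19 and 810.6 and between 207.29 and 228.99 FPKM in knockout, against 569.43 to 703.09 and 131.37 to 361.16 FPKM in WT. Irf8 had 11.58, 17.44 and 15.3 FPKM in knockout and 11.45, 16.57 and 20.05 FPKM in WT, and Irf4 between 11.44 and 13.99 FPKM in knockout and between 11.94 and 18.46 FPKM in WT. None of these 4 passed the threshold by edgeR. Batf, the closest relative of Batf3, stood between 60.61 and 81.87 FPKM in knockout and between 58.61 and 85.53 FPKM in WT, with overlapping groups.

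Zbtb46 encodes a zinc finger repressor that marks committed conventional dendritic cells and their precursors. It had 0.68, 1.6 and 0.45 FPKM in knockout replicates 1 to 3, against 3.86, 4.22 and 3.46 FPKM in WT replicates 1 to 3. The WT libraries were close to one another, with an SD of 0.38 around a mean of 3.85 FPKM, the tightest of the 4 lower genes relative to its level. Knockout libraries averaged 0.91 ± 0.609 FPKM (SD, n = 3 each), and replicate 2 was again the highest. The fitted log2 fold change was -2.07 (SE 0.39), 4.19-fold lower in knockout. Leaving out 1 library moved it between -2.72 (without knockout replicate 2) and -1.74 (without knockout replicate 3). Zbtb46 spans bases 181371009 to 181493262 of mm10 chromosome 2 and overlaps, among others, Lime1, Zgpat and Slc2a4rg-ps, which stood at 97.29 to 118.26, 45.86 to 63.63 and 11.57 to 19.8 FPKM in knockout and at 109.69 to 120.99, 39.49 to 46.36 and 11.02 to 13.12 FPKM in WT. No source used here states strand-specific counting, so reads in the overlaps cannot be assigned with certainty. None of these 3 overlapping genes passed the threshold by edgeR.

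Clec12a encodes an inhibitory C-type lectin of myeloid and dendritic cells that recognises uric acid crystals and signals through the phosphatases SHP-1 and SHP-2. It had 0.17, 0.06 and 0 FPKM in knockout replicates 1 to 3, against 2.14, 6.23 and 9.18 FPKM in WT replicates 1 to 3. As for Batf3, the lowest WT library was replicate 1, and no library overlapped. The mean was 0.0767 ± 0.0862 FPKM in knockout and 5.85 ± 3.54 FPKM in WT (SD, n = 3 each). The knockout libraries held 4 counts in all and the WT libraries 328, and the WT over knockout ratio was 76.3 (95% counting interval 29.5 to 282). The fitted log2 fold change was -6.13 (SE 0.76). It was -7.35 without knockout replicate 1, which held 3 of the 4 counts, and -5.59 without knockout replicate 3. Leaving out other single libraries gave values between these. Clec12a spans bases 129349783 to 129365303 of mm10 chromosome 6. The SHP-1 gene Ptpn6 had 258.16, 128.26 and 243.2 FPKM in knockout and 184.82, 147.81 and 185.65 FPKM in WT (adjusted p = 0.509, edgeR), and the SHP-2 gene Ptpn11 averaged 2.77 FPKM in knockout and 3.95 FPKM in WT (log2 fold change -0.53, adjusted p = 0.0757, edgeR).

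Clec9a, in the same lectin gene cluster on chromosome 6, encodes the receptor DNGR-1, with which cross-presenting dendritic cells sense the actin of dead cells. It was not listed in any library, and neither were the lectin genes Clec12b and Clec1a beside it. Clec1b had 0.13 FPKM in WT replicate 3 and was unlisted elsewhere, and Clec2m stayed at or below 0.16 FPKM. Clec12a was thus the member of this stretch of lectin genes with a readable level, in WT libraries.

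Xcr1 encodes the chemokine receptor with which cross-presenting dendritic cells find T cells and NK cells that secrete XCL1. It had 2.04, 3.37 and 3.03 FPKM in knockout replicates 1 to 3 and 3.58, 2.31 and 3.01 FPKM in WT replicates 1 to 3. The groups overlapped, with means of 2.81 ± 0.691 FPKM in knockout and 2.97 ± 0.636 FPKM in WT (SD, n = 3 each). The fitted log2 fold change was -0.1 (SE 0.25), and leaving out single libraries moved it between -0.27 and 0.1. Counts of Xcr1 were not whole in any of the 6 libraries, so its reads were partly shared with another gene, and the gene, at bases 123852315 to 123862029 of mm10 chromosome 9, ends 416 bases from Fyco1, which lay between 4.88 and 6.6 FPKM in knockout and between 4.29 and 6.78 FPKM in WT. The ligand gene Xcl1, which CD8+ T cells themselves transcribe, had 44.77, 53.85 and 55.92 FPKM in knockout, against 76.77, 24.76 and 27.86 FPKM in WT (adjusted p = 0.753, edgeR), with WT replicate 1 standing apart.

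Flt3 encodes the receptor for the growth factor that drives dendritic cell development. It had 0, 0.32 and 0.24 FPKM in knockout and 0.03, 0.22 and 0.52 FPKM in WT, from 16 and 24 counts, with overlapping groups. The ligand gene, Flt3l, had 40.04, 34.66 and 34.07 FPKM in knockout, against 44.25, 49.41 and 44.91 FPKM in WT. Its groups did not overlap, but the log2 fold change of -0.36 (SE 0.122) did not pass (adjusted p = 0.0891, edgeR).

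Siglech, a surface lectin of plasmacytoid dendritic cells, had 0.39, 0.48 and 0.7 FPKM in knockout, against 0.3, 0.27 and 0.24 FPKM in WT. Knockout libraries were all higher, from 27.1 against 15 expected counts, and the knockout over WT ratio was 1.93 (95% counting interval 0.993 to 3.91). No count was whole, so reads were shared with another gene. Cd209a, a mannose-binding lectin of the second conventional subset and of monocyte-derived cells, had 0.34, 0.09 and 0 FPKM in knockout and 0, 0 and 0.08 FPKM in WT. That is 5 counts against 1, with a knockout over WT ratio of 5.37 (95% counting interval 0.601 to 254), so no difference was detectable at this depth. Its family member Cd209c was higher, between 9.85 and 11.93 FPKM in knockout and between 8.62 and 10.02 FPKM in WT.

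In the fit across 10890 genes (edgeR, Benjamini-Hochberg, adjusted p under 0.05), 8.77% of all genes tested were lower and 3.14% higher, and no call is counted for the members. By level, 4 of the 9 were lower and 1 higher with no overlap between genotypes, beside 13.1% and 11.7% of all listed genes. Itgax, Batf3 and Clec12a passed the filter through WT libraries alone. With every knockout library below 1 FPKM, only higher WT levels could bring them in. Zbtb46 reached 1 FPKM in knockout only in replicate 2 (1.6 FPKM), so it too needed its WT libraries to pass. The members were also chosen with this contrast known. The count is therefore a description.

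In bulk RNA, fewer cells with a transcript and less transcript per cell cannot be told apart. Across libraries of the same genotype, the 4 lower genes did not move as 1 set. Set against the mean of the other two WT libraries, WT replicate 1 had 2.29 times their Itgax, 1.01 times their Zbtb46, 0.221 times their Batf3 and 0.278 times their Clec12a. Among knockout libraries, replicate 2 had 2.78 times the Itgax and 2.83 times the Zbtb46 of the other two, but 0 Batf3 and 0.706 times the Clec12a. Batf3 and Clec12a rest there on 5 and 4 counts over the 3 libraries. Itgax and Zbtb46 thus shared the high knockout library and parted in WT. Batf3 and Clec12a shared the low WT library, and in knockout their counts were too few to say whether they parted. With 3 libraries per group, genes can share a highest or lowest library without being linked. Whether these likenesses exceed noise was not tested.

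MHC class II transcripts, which both dendritic cells and B cells make, varied by library in the same direction as some members and not others. The 10 MHC class II genes summed to 774, 2984 and 691 FPKM in knockout replicates 1 to 3 and to 962, 3120 and 3604 FPKM in WT replicates 1 to 3, and the 13 B cell markers, of which Ighm and Ighd were not listed, to 86.5, 340 and 85 FPKM in knockout and 118, 329 and 431 FPKM in WT. Knockout replicate 2 thus had 4.07 times the MHC class II sum of the other two knockout libraries, and WT replicate 1 had 0.286 times that of the other two WT libraries. The B cell marker sum moved alike, at 3.97 times in knockout replicate 2 and 0.311 times in WT replicate 1. The MHC class II sum therefore cannot tell B cell from dendritic cell RNA. In WT, Batf3 and Clec12a followed these sums, and Itgax and Zbtb46 did not. In knockout, Itgax and Zbtb46 followed them. Batf3 and Clec12a, with 5 and 4 counts over the 3 knockout libraries, were too low there to read. Knockout replicate 2 had as much MHC class II as WT replicates 2 and 3 within 1.5 times, and held less Itgax, Batf3, Zbtb46 and Clec12a than either. A like MHC class II sum does not mean a like amount of dendritic cell RNA. A fit that also carried each library's B cell marker sum was chosen after seeing the data. Its log2 fold changes were -4.05 for Itgax, -4.1 for Batf3, -1.9 for Zbtb46 and -5.33 for Clec12a. Whether dendritic or B cell RNA accounts for any part of these differences was not tested.

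**Figure D2:**
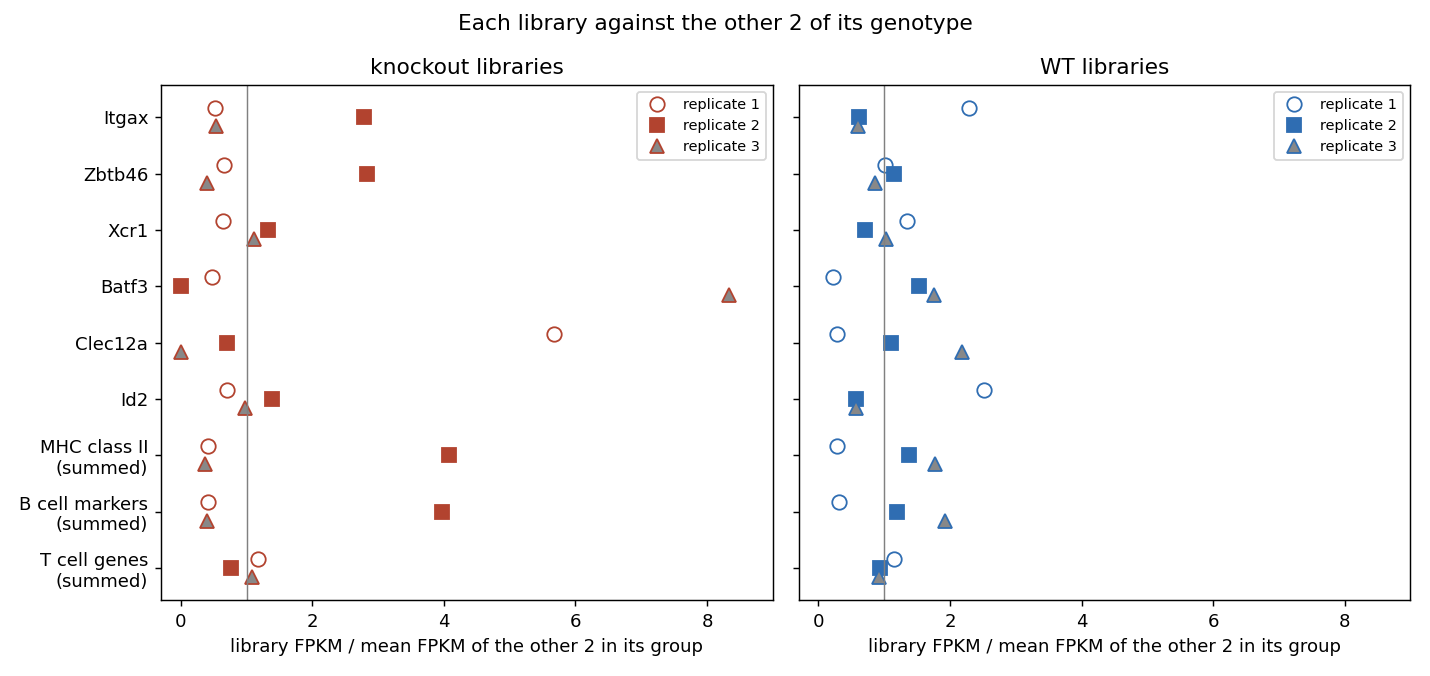
Each library's FPKM divided by the mean of the other two libraries of its genotype, knockout on the left and WT on the right, for 5 members, Id2 and summed marker lists; the vertical line marks 1. Itgax and Id2 are high in WT replicate 1 where Batf3, Clec12a, MHC class II and B cell sums are low, and the wide spread of Batf3 and Clec12a in knockout comes from 5 and 4 counts.

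Of a list of 30 other genes of conventional dendritic cells, 26 were listed and 15 passed the filter. Of these 15, 0 were higher and 2 lower by edgeR, beside 3.14% higher and 8.77% lower of all genes tested. DESeq2 gave the same counts for the 15, and the unadjusted p of 4 lay under 0.05. Their median log2 fold change was 0.06, beside 0.01 for all genes tested. Tlr11, Clec10a, Clec4a4 and Cd209e were not listed in any library, and Cadm1, an adhesion molecule of the cross-presenting subset, was at or below 0.06 FPKM. The summed level was 166, 233 and 163 FPKM in knockout and 180, 233 and 263 FPKM in WT, most of it from Cd83, Snx22, Ppt1 and Cd86. The part of dendritic or B cell RNA in the member levels was not tested.

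The 2 lower genes were Snx22 and Cd80. Snx22, a sorting nexin, had 35.32, 33.58 and 31.59 FPKM in knockout, against 53.23, 52.12 and 60.11 FPKM in WT (log2 fold change -0.73, SE 0.102, adjusted p = 0.00149, edgeR). Cd80, which encodes a ligand of CD28 and CTLA-4, had 0.07, 0.69 and 0.15 FPKM in knockout, against 3.44, 2.29 and 2.48 FPKM in WT (log2 fold change -3.17, SE 0.556, adjusted p = 0.00533, edgeR). With every knockout library below 1 FPKM, Cd80 passed the filter through WT libraries alone, and only higher WT levels could bring it in. The Cd80 call is therefore a description. Without knockout replicate 2 its log2 fold change was -4.5, and 4 genes of the list were lower. Leaving out knockout replicate 1 gave -2.71 for Cd80. Csf2ra, Clec4a2 and Mgl2 were each above WT in every knockout library, with log2 fold changes of 0.83, 0.63 and 0.55 that did not pass (adjusted p = 0.138, 0.241 and 0.325, edgeR). Cd86, the partner ligand gene, overlapped between genotypes at 16.32 to 24.99 FPKM in knockout and 14.48 to 23.62 FPKM in WT.

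Of 15 plasmacytoid dendritic cell genes 9 were tested, 1 was higher and 2 were lower, with a median of -0.26. The shares of all genes tested were 3.14% higher and 8.77% lower. Runx2, a transcription factor gene that T cells also use, had 5.87, 8.57 and 6.76 FPKM in knockout, against 19.1, 12.57 and 19.35 FPKM in WT (log2 fold change -1.2, SE 0.185, adjusted p = 0.0025, edgeR). Bst2, the tetherin gene, averaged 125 FPKM in knockout and 180 FPKM in WT (log2 fold change -0.54, adjusted p = 0.0205, edgeR), a call that ended without WT replicate 1 (adjusted p = 0.0586) or 2 (0.0629), and likewise without knockout replicate 1 (0.0842) or 3 (0.119). Pacsin1, an endocytic adaptor gene, was the higher one, at 9.65 FPKM in knockout and 6.33 FPKM in WT (log2 fold change 0.59, adjusted p = 0.0207, edgeR), and did not pass when WT replicate 1 (0.0562), WT replicate 3 (0.0723) or knockout replicate 3 (0.0952) was left out. The lower count was 4 without knockout replicate 2. Tcf4, the regulator of this lineage, stayed at or below 0.64 FPKM in knockout and 1.64 FPKM in WT, and Ly6c2, the most abundant of the list, lay between 1457.25 and 1572.55 FPKM in knockout and between 1281.91 and 1523.76 FPKM in WT.

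Among 16 transcription regulators known from dendritic cell development, 12 were tested. Of these 12, 1 was higher and 1 lower, beside 3.14% and 8.77% of all genes tested. Besides Id2, which was lower by a log2 fold change of -6.72 (-6.08 without WT replicate 1), the 1 that passed was Stat3, which transmits FLT3 and cytokine signals. It had 120.04, 128.46 and 127.75 FPKM in knockout, against 95.45, 95.67 and 103.62 FPKM in WT (log2 fold change 0.34, SE 0.0926, adjusted p = 0.0427, edgeR). Leaving out any 1 of the 6 libraries ended that call, with adjusted p between 0.0511 and 0.166, as did the B cell covariate (0.0599). Spi1, which encodes the myeloid and B cell factor PU.1, had 0.77, 4.79 and 0.62 FPKM in knockout and 1.38, 3.53 and 3.86 FPKM in WT, in the order of the B cell markers. Of the 13 ligands and partners of the members, all tested, 0 passed the threshold by edgeR and 0 by DESeq2, and 2 had an unadjusted p under 0.05. Without WT replicate 1, 2 were higher and 1 lower, and without knockout replicate 2, 1 was higher and 1 lower.

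Myeloid, NK cell and B cell markers gave no call in the full fit. Of 17 monocyte, macrophage and neutrophil markers 7 were tested, with 0 past the threshold by edgeR, 1 by DESeq2 and 3 at an unadjusted p under 0.05, and Fcgr1, S100a9 and Retnlg were not listed. Their sums were 38.8, 46.5 and 36.8 FPKM in knockout and 54, 35.1 and 35 FPKM in WT, most of it from Lyz2, Cd68 and Csf3r. Of 8 NK cell markers 5 were tested, with 0 past the threshold by edgeR, 1 by DESeq2 and 3 at an unadjusted p under 0.05, and sums of 15.7, 21.8 and 19.1 FPKM in knockout and 38, 18.5 and 21.4 FPKM in WT. Ncr1, which defines NK cells, was at 0 in all 3 WT libraries and at or below 0.18 FPKM in knockout. Klre1, an NK receptor gene, had 3.31 to 5.15 FPKM in knockout, against 25.06, 5.83 and 9.54 FPKM in WT. Klra4, another NK receptor gene, had 3.41, 6.46 and 5.37 FPKM in knockout, against 1.57, 2.3 and 3.16 FPKM in WT, and neither gene passed (log2 fold changes -1.74 and 1.11, adjusted p = 0.053 and 0.0736, edgeR). Without WT replicate 2, 2 myeloid and 2 NK cell markers were lower, and without WT replicate 3, 1 myeloid marker. Of the MHC class II and B cell lists, 0 of 10 and 0 of 10 tested genes passed by edgeR, 0 by DESeq2 and 0 at an unadjusted p under 0.05, and without knockout replicate 2, 6 and 9 were lower.

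**Figure D3:**
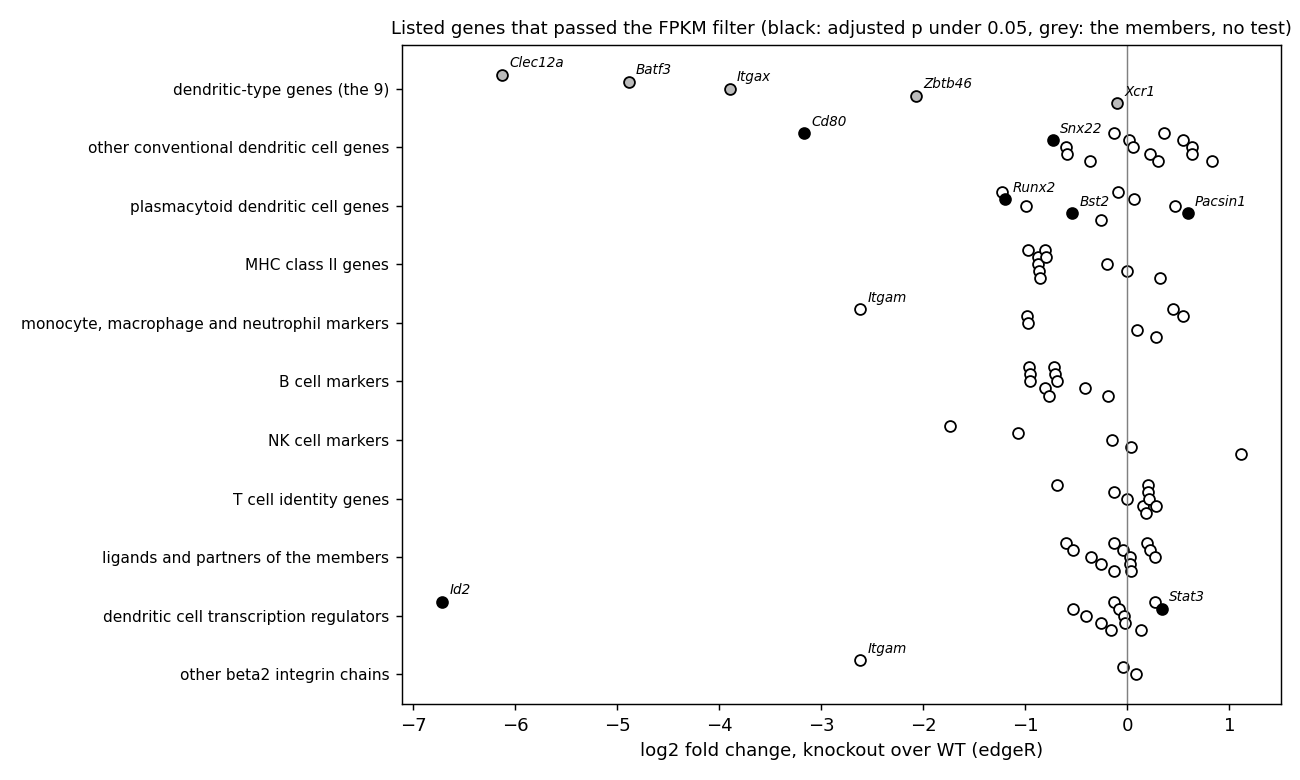
Log2 fold change, knockout over WT, of each gene that passed the FPKM filter, by list; black points passed an adjusted p of 0.05 in edgeR, white points did not, and the members are grey because their contrast was known when they were chosen. Clec12a, Batf3, Itgax and Zbtb46 lie below -2 and Xcr1 near 0, while most other dendritic cell genes lie within 1 of 0.

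The profiles of the 5 readable members over the 6 libraries were compared with those of all genes tested, by the root-mean-square difference of log2(FPKM + 1) after centring each gene. The centring spans both genotypes, so genes with a like step between genotypes lie near a member by construction. The source cell of these transcripts was not tested. Nearest to Itgax were Ccl3, a chemokine gene, Ccr2, a chemokine receptor gene, and Fasl, which encodes a death ligand. Ccl3 had 7.83, 10.78 and 5.93 FPKM in knockout, against 82.36, 37.86 and 32.43 FPKM in WT, with WT replicate 1 the highest as for Itgax. Nearest to Batf3 was Clec12a, at a difference of 0.378, and then Cryab, a small heat shock protein gene, and Aunip, a gene of mitosis and DNA repair.

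Nearest to Clec12a were Aunip, Casp1, which encodes the inflammasome protease, and Nek2, a mitotic kinase gene. Casp1 had 3.44, 3.91 and 3.13 FPKM in knockout, against 7.89, 18.88 and 23.02 FPKM in WT, lowest among WT libraries in replicate 1 as Clec12a was. Nearest to Zbtb46 were Jchain, the antibody joining chain gene, Plk4, a centriole kinase gene, and Carhsp1. Nearest to Xcr1 were Rmi2, Mageb16-ps1 and Ube2m, none of which separated the genotypes. Among the members themselves the difference was 0.656 between Itgax and Zbtb46, 1.07 between Itgax and Batf3 and 0.877 between Itgax and Clec12a. Zbtb46 lay 0.814 from Clec12a, 1.08 from Batf3 and 0.723 from Xcr1, which did not separate the genotypes. Xcr1 lay 1.24 from Itgax, 1.61 from Batf3 and 1.38 from Clec12a.

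**Figure D4:**
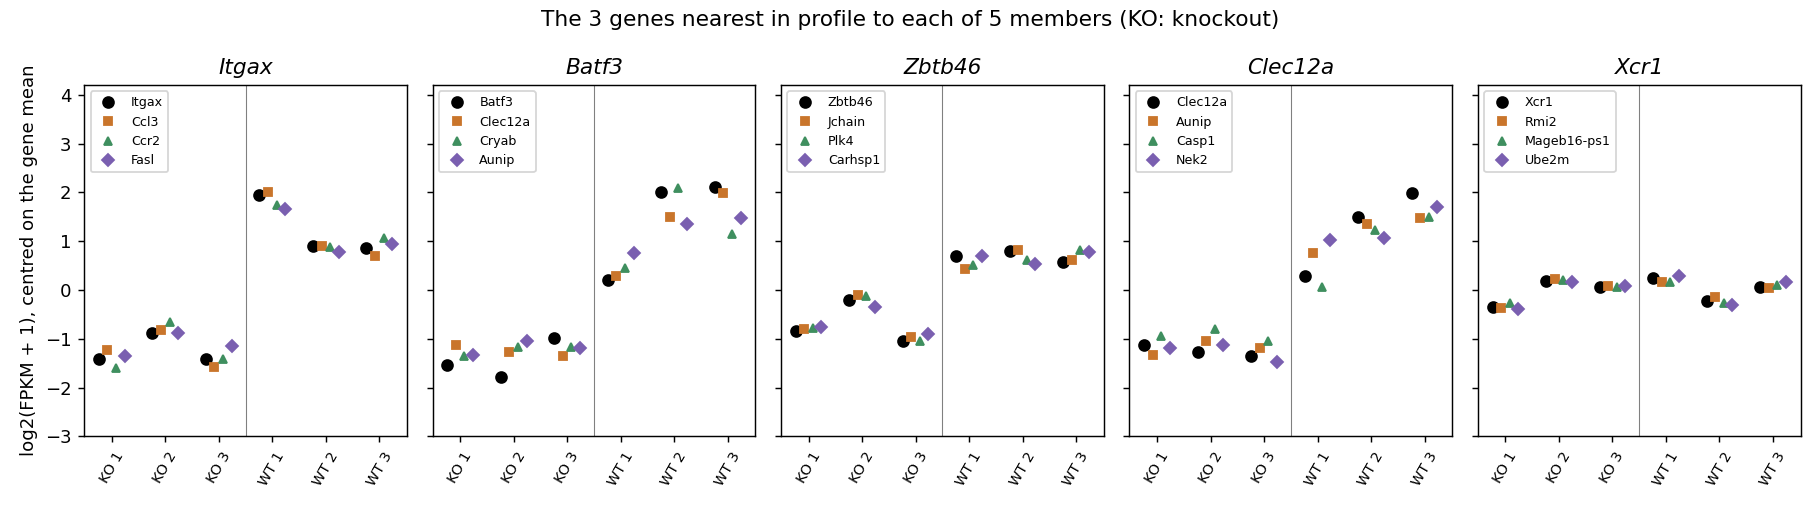
Log2(FPKM + 1) of 5 members (black) and of the 3 genes nearest in profile to each (colours), centred on each gene's mean, in the 3 knockout libraries and then the 3 WT libraries. Itgax and its nearest genes are highest in WT replicate 1, whereas Batf3, Clec12a and theirs are lowest there among the WT libraries.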

How the data were processed

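RNA of 3 knockout and 3 WT samples was sequenced. The authors deposited an expected count and an FPKM value per gene and library, per the file headers; CASAVA, Bowtie2, RSEM and build mm10 are named, without versions, per the submitters' processing notes. Tables were joined by NCBI gene number and named from the RefSeq table of GRCm38.p6 (16707 of 16749 numbers had a symbol); a gene missing from a table was taken as 0. Expected counts were rounded, scaled by TMM and tested with edgeR 4.0.16 (quasi-likelihood, two-sided, Benjamini-Hochberg) in R 4.3.3 on the 10890 genes that reached 1 FPKM in 3 or more libraries. The SE is the log2 fold change divided by the square root of F. The procedure was tested on simulated data. Libraries of a group were not duplicates (chi-square over degrees of freedom between 5.19 and 16.4).

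The members and gene lists were chosen with earlier results of these data known. Irf8, Irf4, Tcf4, Tyrobp, Itgb2 and Itgam stand in 2 or more lists. Named are all members, Id2, up to 3 called genes per direction and the 3 most abundant of each list, the 3 nearest profiles of each readable member, and the nearest protein-coding neighbours. Other genes in the text, among them Cd4, Cd86, Csf2ra, Clec4a2, Mgl2, Cadm1, Tcf4, Spi1, Ncr1, Irf4, Irf8, Batf, Ptpn6, Ptpn11, Xcl1, Flt3l, Cd209c and the genes overlapping Zbtb46, were named after their values were seen. Alternatives were DESeq2 1.42.0, its size factors, limma 3.58.1 on log2(FPKM + 1) or log2(FPKM + 0.1), no filter, an FPKM minimum of 5, a replicate block, each library left out and, added after seeing the data, a B cell covariate (the log2 of each library's B cell marker sum).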

Additional observations from a re-analysis of the deposited data

How the results depend on the processing

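Itgax, Batf3, Zbtb46 and Clec12a kept a negative log2 fold change in every alternative that could give a value, and Xcr1 stayed between -0.27 and 0.1. An FPKM minimum of 5 left Itgax alone among the members. The log2 fold changes ranged from -4.53 to -2.47 for Itgax, -6.42 to -2.87 for Batf3, -2.72 to -1.39 for Zbtb46 and -7.35 to -2.51 for Clec12a, smallest with limma on log2(FPKM + 1), which shrinks low levels by construction. Without 1 library, between 84 and 480 genes were higher and between 517 and 1082 lower (342 and 955 in all libraries), and 5 to 6 members had no overlap. The same fits gave 2 to 4 lower conventional and 1 to 4 lower plasmacytoid dendritic cell genes, 0 to 1 higher plasmacytoid genes, 0 higher and 1 to 2 lower regulators, 0 to 2 lower myeloid markers, 0 to 2 lower NK cell markers, 0 to 9 lower B cell markers, 0 to 6 lower MHC class II genes, 0 to 2 higher and 0 to 1 lower ligands and partners and 0 to 1 lower beta2 integrin chains. With no filter there were 1 higher conventional and 2 higher plasmacytoid genes, 2 lower myeloid and 1 lower NK cell marker, 2 lower regulators and 1 lower beta2 chain. DESeq2 gave 2 higher plasmacytoid genes and 1 lower myeloid and NK cell marker each, and the FPKM minimum of 5 gave 1 lower conventional gene. The B cell covariate gave 1 higher MHC class II gene, 1 higher and 1 lower NK cell marker, 2 lower myeloid markers, 0 higher regulators and 1 lower beta2 chain. The cause of these moves was not tested. With the replicate number as a block, 295 genes were higher and 888 lower, 0 regulators were higher since Stat3 lost its call (adjusted p = 0.0539), and no other count moved by over 1.5 times. Deviations of same-numbered libraries correlated at 0.118, 0.075 and -0.0303, so the numbers were not taken as pairs. Flt3, Siglech and Cd209a rest on 1 to 27.1 counts per group, which limits what can be read from them.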
